A study of Mus musculus with 9 samples.

Results

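Oxidative phosphorylation is the mitochondrial pathway by which cells make most of their ATP, and its nuclear-encoded subunits were followed here in mouse embryonic limb tendon cells. The genes were chosen by annotated symbol. They are those that start with Ndufa, Ndufb, Ndufc, Ndufs, Ndufv, Uqcr, Atp5, Cox4, Cox5, Cox6, Cox7 or Cox8, together with Sdha, Sdhb, Sdhc, Sdhd, Cycs and Cyc1. Of the 18193 genes with a probe set of a single symbol, 92 met this rule, and 86 of them were among the 11575 genes bright enough to be tested. By role the 92 genes were 34 subunits of complex I, 4 of complex II, 9 of complex III, 19 of complex IV, 17 of complex V, cytochrome c itself (Cycs) and 8 Ndufaf genes. The Ndufaf genes help to build complex I and are not subunits of it. They enter because their symbols begin with Ndufa.

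The cells came from forelimbs of Scx-GFP mouse embryos at stage E11.5, E12.5 or E14.5 (days of embryonic development), with 3 arrays at each stage, lettered A, B and C. Tendon progenitors express the transcription factor scleraxis, the product of Scx, and every group carries the same reporter and no other allele or agent. Limbs were dissociated with trypsin and GFP-positive cells were sorted on one or the other of a pair of flow cytometers, with no record here of which array came from which. RNA was hybridised to a short-oligonucleotide 3′ expression array, and the values are linear signals in arbitrary units. The labels do not say whether arrays of a stage come from separate litters, so the p-values measure only the spread between these arrays, which may be technical. The arrays hold bulk sorted cells, so fewer cells of a type and less RNA per cell cannot be told apart.

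In the inner mitochondrial membrane, complex I takes electrons from NADH and complex II takes them from succinate. Both pass them through coenzyme Q to complex III. Cytochrome c carries electrons from there to complex IV, which reduces oxygen. Complexes I, III and IV pump protons, and complex V, the ATP synthase, uses the resulting gradient to make ATP. A few core subunits of complexes I, III, IV and V are encoded in mitochondrial DNA, and the rest, with all of complex II, are nuclear genes like those described here. Several complex IV subunits exist as tissue isoforms, with separate genes for heart and skeletal muscle or for testis.

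Each array had a trimmed mean signal of 500, and the medians ran from 68.7 to 118. Within every stage the median rose from array A to B to C. The ratio of 3′ to 5′ signal of the Actb control rose in the same order, while that of Gapdh did not. Among the 9 tendon markers, all were tested and 8 rose between E11.5 and E14.5, while Scx fell by 0.81 ± 0.22 on the log2 scale (standard error, limma, Benjamini-Hochberg adjusted p = 0.0164). Scx signals averaged 19338 ± 3927 (SD, n = 3) at E11.5, 16656 ± 557 at E12.5 and 11152 ± 3339 at E14.5. Of other lineages, the summed signal of 21 skeletal muscle markers ran from 4782 to 7839 at E11.5, from 8315 to 14602 at E12.5 and from 11547 to 14132 at E14.5. That of 8 erythroid markers ran from 943 to 4150, from 709 to 2725 and from 368 to 918. That of 14 cartilage markers was 98426, 22406 and 10770 on the E14.5 arrays A, B and C, and at most 35635 at the earlier stages. Between E11.5 and E14.5, 8 of 14 tested cartilage markers rose and 0 fell. In the same comparison 6 of 17 tested muscle markers rose and 1 fell, and 2 of 4 tested erythroid markers fell and 0 rose. Of all tested genes, 22.9% rose and 17.7% fell. Myf6, a myogenic regulator, was at the floor in all 9 arrays, and no other muscle, erythroid or cartilage marker was. The sum of 9 endothelial markers ran from 410 to 781 at E11.5, from 576 to 797 at E12.5 and from 1313 to 1627 at E14.5, and 4 of the 5 tested rose between E11.5 and E14.5. The sums of leukocyte, neural and epidermis markers lay between 637 and 1622 on every array. Between E11.5 and E14.5, 3 of 5 tested epidermis markers rose and 1 fell. Among 4 tested leukocyte markers 1 rose and 1 fell, and the same counts held for 4 tested neural markers. Of 16 immediate early and heat shock genes, which respond to cell stress and handling, 9 rose and 1 fell over the same period, with a median of 2.33. Their sum ran from 21328 to 54835, from 31371 to 66118 and from 56378 to 119860. The part of these cell types and genes in the values below was not tested.

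Most of the genes were strongly detected. Of the 86 tested, 73 lay in the top 25% of tested genes by mean log2 signal, 78 had a mean signal over 1000, and 85 were above the detection filter of 90.6 in all 9 arrays. The mean log2 signal over the 86 genes was 12.10, 11.88 and 12.09 on the E11.5 arrays A, B and C. It was 12.26, 12.06 and 12.07 at E12.5, and 11.90, 12.04 and 11.89 at E14.5. The highest values were at E12.5 and E11.5 and the stages overlapped. The 17 complex V genes averaged 13.12, 12.90 and 13.11 at E11.5, 13.24, 13.04 and 13.04 at E12.5, and 12.84, 13.01 and 12.93 at E14.5. The 14 tested complex IV genes averaged between 11.69 and 11.96 over the 9 arrays. These are levels of the same genes on each array, so they can be set against each other between arrays but not between complexes.

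**Figure D1:**
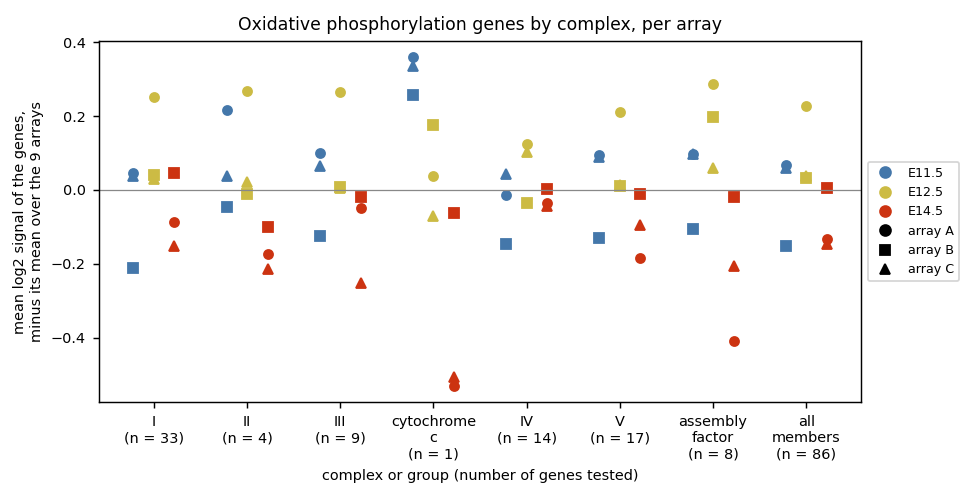
Each point is 1 array. The vertical axis is the mean log2 signal of the tested genes of a complex, minus its mean over the 9 arrays, with stages in colour and array letters by shape. Cytochrome c is lowest on the A and C arrays of E14.5, while B of E14.5 overlaps E12.5, and for all 86 genes together the stages overlap, with the E11.5 B array lowest and the E12.5 A array highest.

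Between E11.5 and E12.5 none of the 86 genes was called at an adjusted p under 0.05 by limma. Of all tested genes, 3.11% rose and 0.441% fell, 3.55% in either direction. At an unadjusted p under 0.05 there were 2 genes, both higher at E12.5, Ndufa7 and Ndufv3. They are 2.33% of the 86, beside 12.2% higher and 3.74% lower among all tested genes. Ndufa7, an accessory subunit of complex I, measured 5905, 5533 and 6450 at E11.5 and 7517, 6988 and 7696 at E12.5. Its arrays did not overlap, but the difference of 0.31 ± 0.12 (log2, standard error) had an adjusted p of 0.241, the smallest among the 86. Ndufv3, another accessory subunit, differed by 0.50 ± 0.21 (adjusted p = 0.279). The median difference over the 86 genes was 0.10, beside 0.04 over all tested genes, and 62 estimates were positive. Arrays of the stages did not overlap for 11 genes higher at E12.5, against 15.8% of all tested genes, and for 2 lower, Cycs and Cox5b, against 7.75%. For Cox5b this holds for the probe set used, which gave -0.14. Its other probe sets above the filter on all 9 arrays gave 0.16, 0.06 and 0.05.

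Within array letters, the mean difference of the 86 genes between E11.5 and E12.5 was 0.16 for A, 0.18 for B and -0.02 for C. Centring each array on its median in place of the trimmed mean gave a median difference of -0.0017 over the 86 genes and -0.06 over all tested genes. Such centring shifts every gene of an array by the same amount, so it cannot move the gap between them. Quantile normalisation, which can, gave 0.12 beside 0.02. Leaving out single arrays also moved the gap. The median of the 86 genes was 0.02 when array A of E12.5 was dropped, beside 0.05 over all tested genes, with 50 estimates positive. It was 0.03 when B of E11.5 was dropped, beside 0.05 and with 54 positive, and 0.15 when A of E11.5 was dropped, also beside 0.05. All 86 of the 95% intervals for this step lay between -0.98 and 1.39.

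Between E12.5 and E14.5, 4 of the 86 genes fell (4.65%), against 9.32% of all tested genes, and none rose, against 12.6%. The fallers were Ndufaf4, Ndufab1, Ndufb7 and Ndufv2, which are 3 subunits of complex I and a factor needed to build it. At an unadjusted p under 0.05, limma gave 14 genes lower (16.3%) and 0 higher, beside 17.9% lower and 18.1% higher among all tested genes. Estimates were small but mostly on one side. The median was -0.19, beside -0.05 over all tested genes. Of 86 estimates, 75 (87.2%) were negative, beside 54.3% of all tested genes and 64.9% of those in the top 25% of signal. Some other lists leaned the same way, with 71 of 76 mitochondrial ribosome genes and 34 of 35 proteasome genes negative. In the cytosolic ribosome 20 of 46 were negative. All 17 complex V genes, all 4 complex II genes and all 8 Ndufaf genes had negative estimates, with medians of -0.18, -0.27 and -0.40, and only Ndufaf4 among them was called. Arrays did not overlap for 27 genes that were lower at E14.5, against 21.9% of all tested genes, and for 1 that was higher, Ndufa13, against 20.6%. Within letters the mean difference was -0.36 for A, -0.03 for B and -0.18 for C.

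Ndufaf4, an assembly factor of complex I, measured 1516, 1498 and 1290 at E12.5 and 694, 998 and 1054 at E14.5. All E14.5 arrays were below all E12.5 arrays, and the gene fell by 0.67 ± 0.18 on the log2 scale (limma, adjusted p = 0.0291). Ndufab1, the mitochondrial acyl carrier protein that is also a complex I subunit, measured 6354, 5889 and 5837 and then 3922, 4882 and 4012. It fell by 0.50 ± 0.13 (adjusted p = 0.0215), with no overlap. Ndufv2, which carries an iron-sulfur cluster in the NADH-oxidising arm of complex I, measured 7709, 6663 and 6966 and then 4523, 5779 and 5405 (fell by 0.45 ± 0.13, adjusted p = 0.0411). Ndufb7, an accessory subunit of the membrane arm, measured 6045, 4897 and 4483 and then 3324, 3936 and 3703 (fell by 0.48 ± 0.15, adjusted p = 0.0498). For both genes every E14.5 array was below every E12.5 array.

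These 4 calls changed when single arrays were left out. Leaving out 1 array at a time gave 0 to 5 genes that fell, with 0 when the dropped array was A or B of E12.5 or A of E14.5, 1 for C of E14.5, and 2 for A or C of E11.5 or C of E12.5. Ndufaf4 was not called in the fits that lacked A or B of E12.5 or A of E14.5, and Ndufab1 in those that lacked any E12.5 array or A or C of E14.5. Ndufv2 stayed called only in the fits that lacked B of E11.5 or B of E14.5, and Ndufb7 only in the fit that lacked B of E11.5. Without all 3 letter A arrays none of the 4 was called. Calls over all tested genes dropped as well, to 4.79% lower without A of E12.5, 5.85% without B of E12.5, 6.75% without A of E14.5 and 2.58% without the letter A arrays. With the array letter as a block, which pairs arrays for this interval, 4 genes again fell, but Ndufs1 (adjusted p = 0.0458) and Ndufaf6 took the places of Ndufb7 (0.0537) and Ndufv2 (0.0502).

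Between E11.5 and E14.5, over the whole period, 8 of the 86 genes fell, against 17.7% of all tested genes, and 1 rose, against 22.9%. In either direction that is 10.5% of the 86, against 40.5% of all tested genes and 40.3% of the tested genes in the top 25% of signal. This comparison shares its arrays with the others. The fallers were Cycs, Ndufaf4, Ndufab1, Cox5a, Ndufs1, Ndufa12, Atp5g2 and Uqcrfs1, and the gene that rose was Cox6b2. Of 86 estimates, 56 (65.1%) were negative, beside 49.8% of all tested genes and 60.8% of those in the top 25% of signal. The median difference was -0.09, beside 0.00 over all tested genes. It was -0.16 when array B of E14.5 was dropped, -0.15 when B of E11.5 was dropped and -0.05 without all letter A arrays. Arrays did not overlap for 22 genes lower at E14.5, against 24.1% of all tested genes, and for 5 higher, against 27.3%. Whether the 86 genes differ as a set from other genes was not tested.

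**Figure D2:**
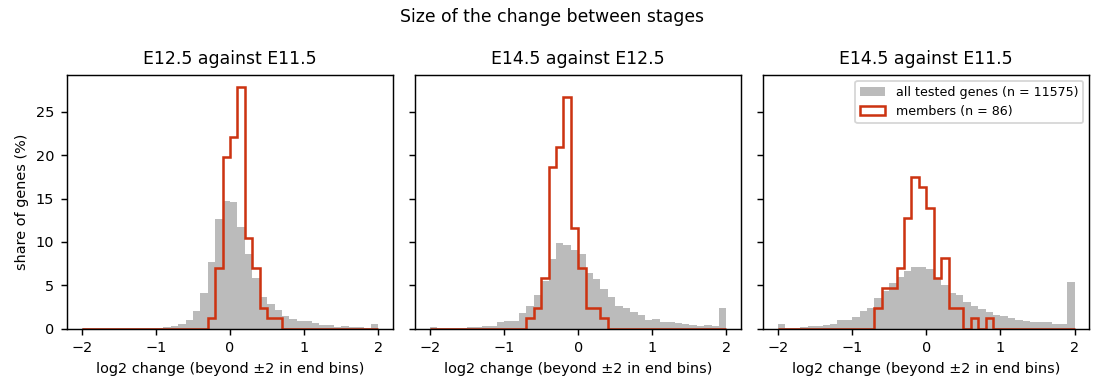
Share of genes, in percent, by log2 difference between stages, for all 11575 tested genes (grey) and the 86 oxidative phosphorylation genes (red line), with values beyond ±2 in the end bins. The 86 genes lie within -0.68 and 0.81 between E11.5 and E14.5, while all tested genes extend past 2 in both directions.

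Array letters did not give the same answer for this span. The mean difference of the 86 genes was -0.20 within A, with 61 genes lower, and -0.21 within C, with 71 lower. Within B it was 0.16, with 56 genes higher and 30 lower. The E11.5 B array held the lowest mean of the 9 for these genes. Under quantile normalisation the median of the 86 genes was -0.06, beside -0.05 over all tested genes. Centring each array on its median moved the median of all tested genes to -0.22 and that of the 86 genes to -0.31. The gap between them cannot move under such centring, which shifts every gene of an array alike. That centring turned the split of all calls from 2646 higher and 2045 lower to 1676 higher and 2493 lower, and the members then gave 0 higher and 9 lower.

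Promoters of respiratory genes are known to carry sites for NRF1, GABP (an ETS-family factor) and YY1, so RefSeq promoters (GRCm38.p6, from 250 bases before to 50 after the start) were searched for them. Promoters of 75 of the 92 genes were searched. The search did not cover every chromosome, so a gene left out, such as Atp5a1 or Ndufa2, may still have a listed promoter. The NRF1 string was GCGCA followed by any base and GCGC on either strand. It was in 17 of the 75 (22.7%), beside 5.19% of the 27025 genes searched. Those 27025 reach beyond the 18193 genes with a probe set, and they were not matched to the 75 in signal. The ETS string CCGGAAG was in 19 (25.3%), beside 9.93%, and the YY1 string AAGATGGCG was in 7 (9.33%), beside 1.64%. No string contains another. Any of them occurred for 37 genes (49.3%), beside 15.1%. A gene counted where any of its listed promoters held the string. Of the 10 called genes searched, 2 held the NRF1 string, 1 the ETS string and 0 the YY1 string. Among the 61 tested genes that were searched and not called, 14, 18 and 7 did. A match of letters is no evidence of binding, and differences between these groups were not tested.

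The 150 bases upstream of the start are shown for Ndufaf4 and Atp5g2, the called genes with the NRF1 string, and for Cycs, the largest faller, which held none of the strings in the window. Sdha, Sdhd, Cox6a1 and Atp5j, none of them called, show the strings alone or together. Capitals mark a match on either strand, and each is written 5′ to 3′ along its gene.
Ndufaf4: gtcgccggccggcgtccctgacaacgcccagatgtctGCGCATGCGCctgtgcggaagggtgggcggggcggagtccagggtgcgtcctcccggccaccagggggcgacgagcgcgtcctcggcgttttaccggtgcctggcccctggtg
Atp5g2: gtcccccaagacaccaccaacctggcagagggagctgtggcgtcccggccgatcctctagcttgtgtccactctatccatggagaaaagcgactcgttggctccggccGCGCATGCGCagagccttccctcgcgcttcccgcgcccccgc
Cycs: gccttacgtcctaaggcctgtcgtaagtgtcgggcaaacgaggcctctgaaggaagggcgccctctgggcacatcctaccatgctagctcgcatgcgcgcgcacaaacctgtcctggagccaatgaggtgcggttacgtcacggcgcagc
Sdha: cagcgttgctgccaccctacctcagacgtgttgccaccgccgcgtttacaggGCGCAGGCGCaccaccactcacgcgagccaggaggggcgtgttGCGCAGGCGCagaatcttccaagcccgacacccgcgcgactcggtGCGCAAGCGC
Sdhd: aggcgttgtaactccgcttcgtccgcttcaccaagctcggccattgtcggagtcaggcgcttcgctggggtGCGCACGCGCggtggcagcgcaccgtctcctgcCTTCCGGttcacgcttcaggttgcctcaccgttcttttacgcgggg
Cox6a1: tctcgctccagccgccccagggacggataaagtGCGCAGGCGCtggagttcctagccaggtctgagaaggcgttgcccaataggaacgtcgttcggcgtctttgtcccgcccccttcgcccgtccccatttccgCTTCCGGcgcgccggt
Atp5j: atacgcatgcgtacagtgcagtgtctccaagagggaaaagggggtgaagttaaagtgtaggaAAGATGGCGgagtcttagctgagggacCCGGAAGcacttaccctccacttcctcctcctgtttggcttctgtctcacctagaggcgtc
The window of Ndufaf4 lies at chr4:24897933-24898082 on the plus strand. The others are on the minus strand, with Atp5g2 at chr15:102671048-102671197, Cycs at chr6:50566570-50566719, Sdha at chr13:74350241-74350390 and Sdhd at chr9:50603850-50603999. Cox6a1 is at chr5:115348959-115349108 and Atp5j at chr16:84834977-84835126, one of its listed starts. Sdha carries the NRF1 string 3 times, and Sdhd and Cox6a1 carry it with the ETS string. Atp5j carries the YY1 and ETS strings. From E11.5 to E14.5, Sdha, Sdhd, Cox6a1 and Atp5j differed by -0.20, -0.26, 0.03 and -0.06.

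Cycs encodes the soluble electron carrier between complexes III and IV, which also triggers the caspase cascade when it leaves mitochondria. Its signals were 13454, 12534 and 13240 at E11.5, 10771, 11846 and 9991 at E12.5, and 7257, 10040 and 7386 at E14.5. Every E12.5 array lay below every E11.5 array, and every E14.5 array below E11.5. From E11.5 to E14.5 it fell by 0.68 ± 0.15 (limma, adjusted p = 0.00643), to 0.622 of its E11.5 level. The steps to E12.5 and from E12.5 were -0.27 ± 0.15 (adjusted p = 0.445) and -0.41 ± 0.15 (adjusted p = 0.0824). The other 2 probe sets of the gene above the filter gave -0.56 and -0.67.

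In complex I, Ndufs1, the largest subunit, which carries several iron-sulfur clusters, measured 2892, 3523 and 2902 at E11.5. At E12.5 it measured 2711, 2933 and 2767, and at E14.5 2044, 2223 and 2205. The E14.5 arrays were below all others, and the gene fell by 0.52 ± 0.13 from E11.5 (adjusted p = 0.00963). Ndufab1 measured 6457, 6127 and 6182 at E11.5, with overlapping values at E12.5, and fell by 0.56 ± 0.13 to E14.5 (adjusted p = 0.00727). Ndufa12, an accessory subunit, measured 4400, 3536 and 4196 at E11.5 and 2593, 3494 and 2845 at E14.5. It fell by 0.45 ± 0.15 (adjusted p = 0.0423), with E14.5 B just below E11.5 B. Ndufaf4 had E11.5 signals of 1404, 1249 and 1614 and fell by 0.65 ± 0.18 (adjusted p = 0.0186).

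In complex III, 1 of 9 genes fell. Uqcrfs1, the Rieske iron-sulfur protein, measured 4570, 4586 and 4410 at E11.5, 4646, 4211 and 3943 at E12.5, and 3376, 3900 and 3275 at E14.5. Its E14.5 arrays were below all others, and it fell by 0.37 ± 0.13 from E11.5 (adjusted p = 0.0431). In complex IV, Cox5a, a nuclear subunit of the complex, measured 15393, 13354 and 14543 at E11.5. It measured 14794, 12324 and 11492 at E12.5 and 9700, 12016 and 8173 at E14.5, where E14.5 B overlapped the E12.5 range. Cox5a fell by 0.55 ± 0.17 from E11.5 (adjusted p = 0.0274), and its other 2 probe sets gave -0.68 and -0.71. In complex V, Atp5g2, one of 3 genes for the membrane ring subunit c, measured 8101, 7082 and 7779 at E11.5 and 6587, 5225 and 5147 at E14.5 (fell by 0.44 ± 0.15, adjusted p = 0.0348).

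**Figure D3:**
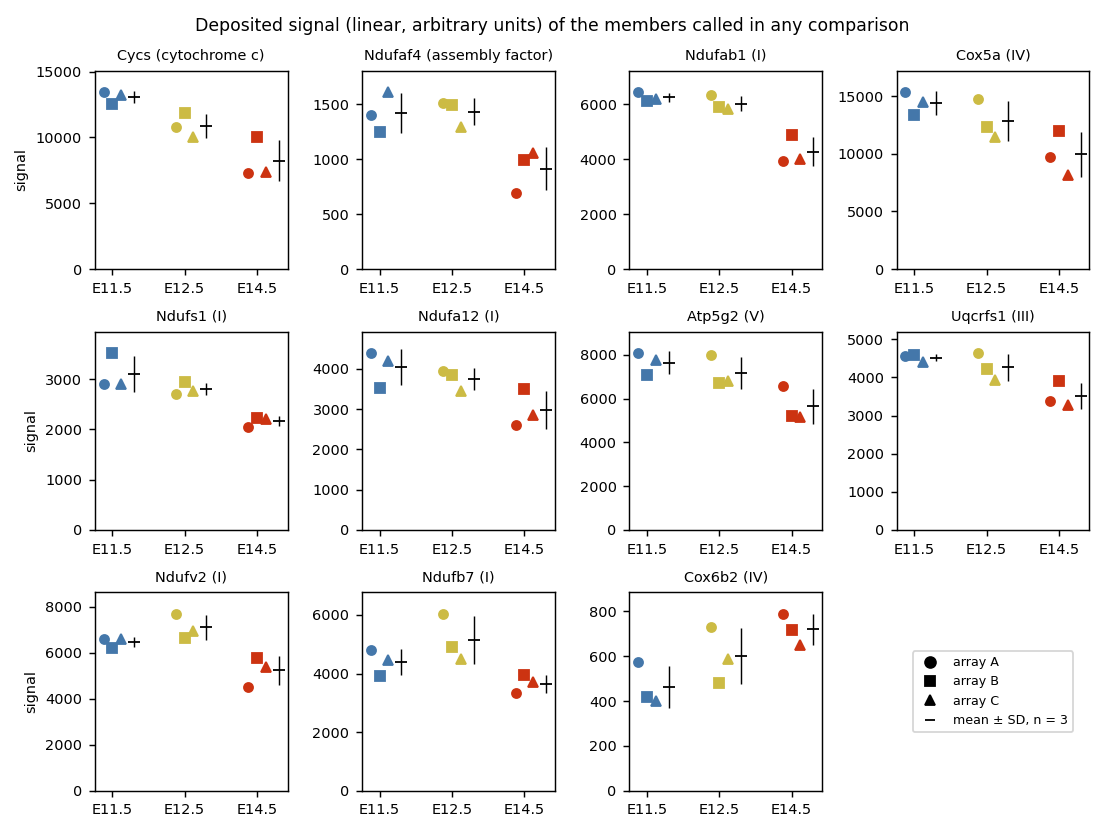
Linear signal of each array for the 11 genes called in any comparison, 1 panel a gene, with axes from 0. Shapes mark array letters and bars give the mean ± SD of 3 arrays. Cycs, Ndufab1 and Ndufs1 have E14.5 arrays below every E11.5 array, and Cox6b2 has them above.

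How far these calls depend on single arrays differed between genes. Cycs, Ndufab1 and Ndufs1 stayed called in all 9 fits that left out 1 array. They were not called without all 3 letter A arrays (adjusted p = 0.0723, 0.0718 and 0.0532). Ndufaf4 was not called in that fit either, nor when array C of E11.5 was dropped. The call of Cox5a was lost when A or C of E11.5, A or C of E14.5 or all letter A arrays were dropped. That of Cox6b2 was lost when B or C of E11.5, or A or B of E14.5, was dropped. Atp5g2 stayed called in 3 of the 9 fits, those that lacked B of E11.5, A of E12.5 or A of E14.5. Uqcrfs1 stayed called in 1, that lacking B of E14.5, and Ndufa12 in 2, those lacking B of E11.5 or B of E14.5. The count of fallers ran from 3 to 8. It was 4 when A of E11.5 was dropped, 3 for C of E11.5, 5 for B of E12.5 and 4 for C of E14.5, and 1 without all letter A arrays. In those fits 13.3%, 15.7%, 15.9%, 14% and 10.9% of all tested genes fell.

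Cox6b2, known as the testis isoform of subunit 6b of complex IV, was the 1 gene that rose. Its signals were 572, 417 and 400 at E11.5, 729, 479 and 588 at E12.5, and 790, 718 and 650 at E14.5. All E14.5 arrays were above all E11.5 arrays, and it rose by 0.65 ± 0.20 (adjusted p = 0.0246), or 1.57-fold. With median centring the difference was 0.43 (adjusted p = 0.241). The ubiquitous Cox6b1 measured 13946, 12005 and 13327 at E11.5 and 11289, 11733 and 10687 at E14.5 (log2 difference -0.22 ± 0.13, adjusted p = 0.201).

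Other tissue isoforms of complex IV, apart from Cox8c, stayed near the detection limit. The heart and muscle isoform Cox6a2 had signals from 54.1 to 167 over the 9 arrays and differed by 0.44 ± 0.31 between E11.5 and E14.5 (adjusted p = 0.291). The widely expressed form of this subunit, Cox6a1, gave 0.03 ± 0.13. Cox7a1 and Cox8b, also heart and muscle forms, were not tested, with signals from 28.3 to 75 and from 2.73 to 44.3. The widely expressed Cox7a2 and Cox8a differed by -0.20 ± 0.14 and -0.12 ± 0.14, neither called. Cox7a2l, which links complexes III and IV, differed by 0.28 ± 0.22 (adjusted p = 0.352).

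Cox4i2, the isoform of subunit 4 best known from lung, was not tested, with signals from 37.7 to 82.0, while Cox4i1 differed by 0.15 ± 0.12 (adjusted p = 0.352). Cox8c, with signals from 146 to 298 and above the filter on all 9 arrays, gave 0.12 ± 0.26. Cox7b2 was not tested, with signals from 1.71 to 27.3. Ndufa4, now assigned to complex IV, differed by -0.06 ± 0.12. Its relative Ndufa4l2, a target of hypoxia-inducible factor, measured 13.1, 45.6 and 19.7 at E11.5 and 9.58, 9.35 and 15.4 at E12.5. It measured 123, 15.2 and 126 at E14.5, over the filter in only 2 arrays, so it was not tested. Ndufb4 was likewise not tested, with signals of at most 35.1, while 2 probe sets shared with the related Ndufb4b and Ndufb4c read 2213 to 4653 and were not assigned.

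The catalytic and core subunits not yet given did not pass the test between E11.5 and E14.5. In complex I, the hydrophilic-arm subunits Ndufs3, Ndufs7, Ndufs8 and Ndufv1 differed by -0.16 ± 0.14, 0.06 ± 0.14, -0.12 ± 0.17 and -0.12 ± 0.13. Ndufv2 had a difference of -0.31 ± 0.13 (adjusted p = 0.0915). Complex II, which is also succinate dehydrogenase of the citric acid cycle, gave -0.20 ± 0.12 for the flavoprotein Sdha and -0.32 ± 0.15 for the iron-sulfur subunit Sdhb. Its membrane anchors Sdhc and Sdhd gave -0.16 ± 0.15 and -0.26 ± 0.17. Sdhb, for example, measured 6517, 5517 and 5804 at E11.5 and 4090, 5506 and 4802 at E14.5, where the arrays did not overlap by a small margin.

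In complex III, Uqcrc1 and Uqcrc2, its core proteins, gave -0.08 ± 0.16 and -0.17 ± 0.15, and cytochrome c1 (Cyc1) gave -0.36 ± 0.23. In the ATP synthase, the alpha and beta subunits of the catalytic head, Atp5a1 and Atp5b, gave -0.15 ± 0.12 and -0.31 ± 0.13 (adjusted p = 0.352 and 0.0884). Atp5b measured 14297, 12273 and 14953 at E11.5 and 11719, 11604 and 10049 at E14.5, which did not overlap. The other subunit c genes, Atp5g1 and Atp5g3, gave 0.00 ± 0.17 and -0.17 ± 0.14. The difference between Atp5g2 and these copies was not tested.

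The spread between arrays sets bounds on the differences. The median standard error was 0.149 for the 86 genes and 0.179 for all tested genes. For 80 of the 86 genes (93%) the whole 95% interval between E11.5 and E14.5 lay within ±1 on the log2 scale, beside 61% of all tested genes and 75.6% of those in the top 25% of signal. Within ±0.5 it was 35 genes (40.7%), beside 14.9% and 22.5%. The widest intervals included that of Ndufb1, a small complex I subunit of low signal, which differed by 0.81 ± 0.41 with an interval from -0.10 to 1.72. An interval that includes 0 does not show that a gene stayed level.

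**Figure D4:**
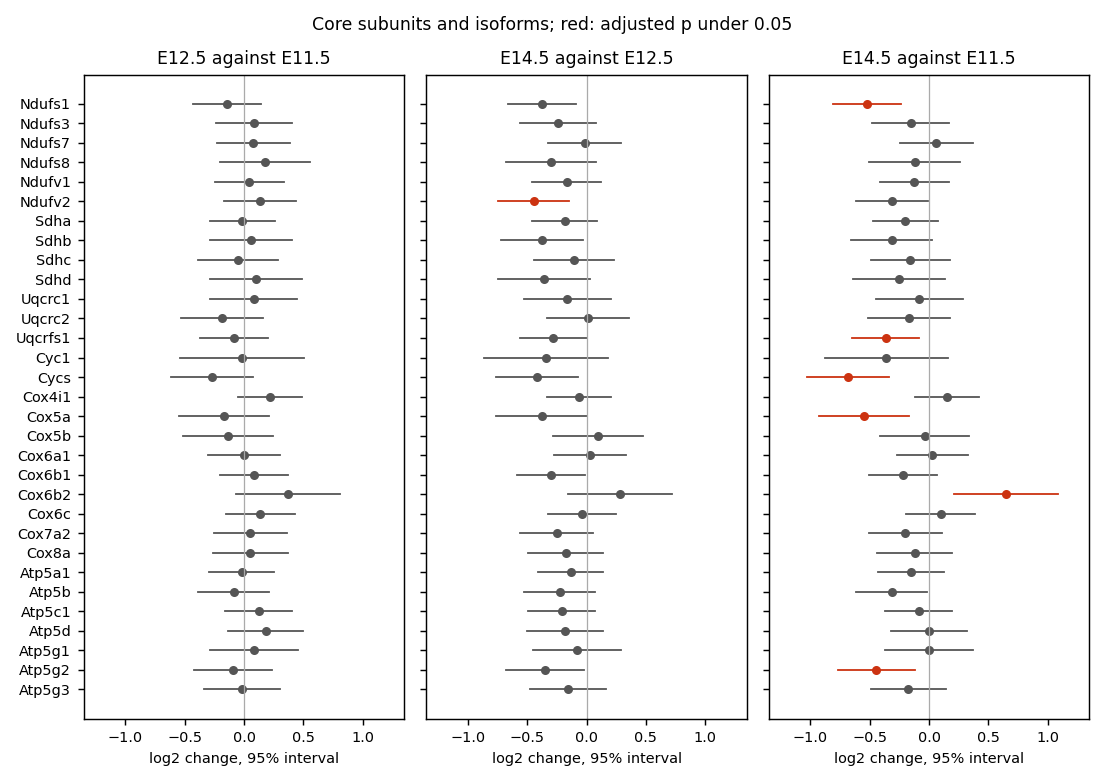
Log2 difference with its 95% interval for 31 core subunits and isoforms in the 3 comparisons, with red for an adjusted p under 0.05. Between E11.5 and E14.5 most intervals include 0, and those of Ndufs1, Uqcrfs1, Cycs, Cox5a and Atp5g2 lie below it while that of Cox6b2 lies above. The intervals of Ndufv2 and Atp5b also lie just below 0, although neither gene was called.

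Among the 8 assembly factors, Ndufaf6 came closest to the threshold after Ndufaf4. It measured 541, 529 and 487 at E11.5, 616, 638 and 408 at E12.5, and 316, 443 and 330 at E14.5, and differed by -0.53 ± 0.20 from E11.5 (adjusted p = 0.0601). Ndufaf7, a methyltransferase, was on the other side at 0.30 ± 0.19 (adjusted p = 0.242).

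Several genes carried more than 1 probe set. Of the 92 genes, 40 had a single probe set and 52 had several. Of 76 further probe sets above the filter, 70 gave a difference between E11.5 and E14.5 within 0.5 log2 of the one used, and all 76 within 1. Among called genes, 2 dimmer probe sets of Ndufab1 gave -0.25 and -0.23, where the one used gave -0.56. A further dim probe set of Ndufab1, above the filter on 5 arrays, gave -1.41, and one of Atp5g2, above it on 3 arrays, gave -1.20 where the one used gave -0.44. Ndufs1, Uqcrfs1 and Cox6b2 had 1 probe set each, so their calls have no second reading.

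The regulators themselves were mixed. Over the whole period Gabpb1, the beta chain of GABP, fell by 0.84 ± 0.12 (adjusted p = 0.000698), while Gabpa, its DNA-binding chain, gave -0.01 ± 0.18. Nrf1 gave -0.51 ± 0.42 (adjusted p = 0.375). Tfam, which packages and transcribes mitochondrial DNA, fell by 0.72 ± 0.14 (adjusted p = 0.00365), from a mean signal of 2295 ± 230 (SD, n = 3) to 1399 ± 165. Twnk, the mitochondrial DNA helicase, fell by 0.74 ± 0.16 and Yy1 by 0.38 ± 0.13. Top1mt, mitochondrial topoisomerase, rose by 1.16 ± 0.17, and Esrra, a nuclear receptor that drives mitochondrial genes, rose by 0.61 ± 0.13. Ppargc1a, the coactivator PGC-1 alpha, gave -0.88 ± 0.35 (adjusted p = 0.0742). In the list of mitochondrial biogenesis genes 2 of 22 rose and 4 fell, with a median of -0.30. ND5, a mitochondrially encoded complex I subunit and the only one among the genes used here, averaged 15368 ± 5562, 13330 ± 3635 and 13423 ± 3756 at the 3 stages and gave -0.17 ± 0.32 (adjusted p = 0.714).

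Neighbouring lists gave other counts in the same comparison, where 22.9% of all tested genes rose and 17.7% fell. In the mitochondrial ribosome, which translates the mitochondrially encoded subunits, 21 of 76 genes fell and 2 rose, with a median of -0.24. Its largest fallers were Mrps22 (-0.93 ± 0.19), Mrpl34 (-0.80 ± 0.17) and Mrpl44 (-0.70 ± 0.16). Of 40 further assembly factors 7 fell and 2 rose, led by Nubpl (-0.84 ± 0.18), which delivers iron-sulfur clusters to complex I. In coenzyme Q synthesis 3 of 12 fell, among them Coq7 (-0.64 ± 0.18), and 1 rose. In the citric acid cycle and pyruvate dehydrogenase 4 of 18 fell and 1 rose, Pdha1 (0.53 ± 0.13), while Pdhb and Pdhx of the same complex fell by 0.45 ± 0.14 and 0.49 ± 0.16. Slc25a5, an ATP carrier of the inner membrane, fell by 0.58 ± 0.14, and Mpc1, a pyruvate carrier subunit, rose by 0.69 ± 0.15.

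Fuel-use lists outside the chain also had changes in either direction. In fatty acid oxidation 4 of 17 genes rose and 1 fell, with Cpt1a, which admits fatty acids to mitochondria, up by 0.86 ± 0.23. In glycolysis 2 of 13 rose and 5 fell, with Ldhb down by 1.11 (log2 difference -1.11 ± 0.16) and Pfkp up by 0.98 ± 0.28. In the hypoxia response 6 of 16 rose and 2 fell, led by Ndrg1 (2.46 ± 0.16). In the cytosolic ribosome 2 of 46 rose and 0 fell at a median of 0.02, and in the proteasome 13 of 35 fell and 1 rose. In the cell cycle list 18 of 19 genes fell, with a median of -0.92. Its summed signal ran from 99976 to 118390 at E11.5, 86847 to 93433 at E12.5 and 46968 to 63876 at E14.5, and its part in the oxidative phosphorylation values was not tested. No difference between lists was tested.

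**Figure D5:**
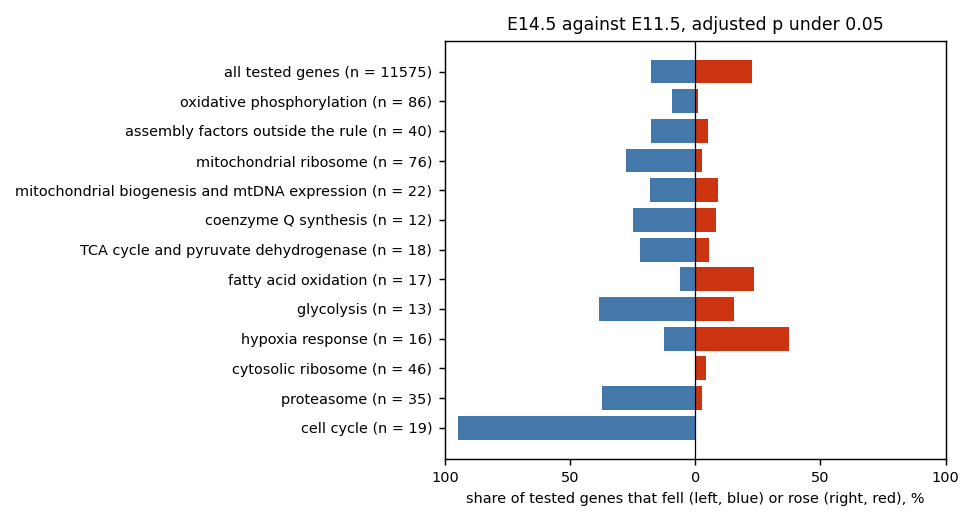
Share of tested genes, in percent, that fell (left, blue) or rose (right, red) between E11.5 and E14.5 at an adjusted p under 0.05, for all 11575 tested genes and 12 lists. The oxidative phosphorylation bar, 8 fallers and 1 riser of 86, is shorter on both sides than that of all tested genes, and the cell cycle bar is the longest.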

How the data were processed

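Bulk RNA of Scx-GFP-positive forelimb cells was measured on 9 arrays, 3 at each of 3 stages. The signals are linear intensity values that the authors deposited. Per the submitters' processing notes they come from MAS5 and Affymetrix Expression Console 1.1. Of 45101 probe sets, 34945 had 1 annotated symbol and 932 had several, which were left out with 9160 not listed and 64 controls. Of the genes, 18032 were found by gene ID in the RefSeq table.

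Before log2, lower signals were raised to a floor of 22.7, the 25th percentile over the table. Each gene took its probe set of highest mean log2 signal, avoiding _x_at probe sets where possible. Testing required a signal above 90.6, the table's median, on 3 or more arrays. A single limma 3.58.1 fit (R 4.3.3) had 3 stage means, with Benjamini-Hochberg adjustment over 11575 genes, calls at an adjusted p under 0.05 and two-sided tests. It had no term for the array letter, so its p-values for the shorter steps take no account of the pairing described below. The number of arrays limits the precision. Named genes were the called members, up to 4 per complex and direction, the core subunits and isoforms, and in other lists the 3 largest calls, and any other gene was named after its values were seen. The members and lists were chosen with earlier results of these data known. The code was tested on simulated data.

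Array letters pair samples where the deviations of same-letter arrays correlate over 0.1 for every letter. For A, B and C the correlations of E12.5 with E11.5 arrays were 0.52, 0.133 and 0.332. Those of E14.5 with E12.5 arrays were 0.31, 0.121 and 0.289. Those of E14.5 with E11.5 arrays were 0.313, -0.00516 and 0.238, so letter B fell short there and the rule was not met. Alternatives covered scaling, floor, filter, probe set choice, variance prior, array weights, the replicate block, a 3′ to 5′ control covariate, the arrays fitted and leaving out each array.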

Additional observations from a re-analysis of the deposited data

How the results depend on the processing

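None of the 21 alternatives reversed a direction of a named call, and of the values compared for single genes 2097 kept their side of the threshold, 94 lost a call and 14 gained one. Between E11.5 and E12.5 no alternative called a member, and the counts and medians named here are those that moved by over 1.5 times or by more than the spread between arrays. Between E12.5 and E14.5 the number of members that fell, 4, was 1 with median centring, 1 with the mean of all probe sets of a gene, 7 with a trended and robust prior, 8 with the 3′ to 5′ covariate, 2 in a fit of only the 6 arrays compared, 0 without the letter A arrays and 0 to 5 without 1 array. The number that rose, 0, was 1 with no filter (Ndufb4, of low signal), and the median, -0.19, was -0.32 with median centring. Between E11.5 and E14.5 the number that fell, 8, was 5 with the mean of probe sets, 13 with the covariate, 1 without the letter A arrays and 3 to 8 without 1 array. The number that rose, 1, was 0 with median centring or no filter, 2 with quantile normalisation, the mean of probe sets or without the letter A arrays, and 0 to 1 without 1 array. The median, -0.09, was -0.31 with median centring. With the replicate block, members that fell numbered 4 between E12.5 and E14.5 and 8 between E11.5 and E14.5, as without it. Over the longer span Ndufaf6 (adjusted p = 0.0316) took the place of Ndufa12 (0.0545). Between E11.5 and E14.5, where letter B fell short of the pairing rule, the block moved the calls over all genes from 2646 higher and 2045 lower to 2895 and 2367. Fewer arrays leave less precision in the fits without an array; otherwise the cause was not tested. Over all genes, calls between E11.5 and E12.5 went from 360 higher and 51 lower to 136 and 20 with the mean of probe sets, to 214 and 35 with median centring, and to 154 and 28 of 18193 genes with no filter.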
